A study of Mus musculus with 20 samples.

Results

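The mRNAs of 10 genes that license replication origins were followed in mouse embryonic stem cells (ESCs) after deletion of Cnot3, which encodes part of the CCR4-NOT deadenylase that trims mRNA tails in the cytoplasm. The genes were Cdt1, Orc1, Cdc6, Gmnn and Mcm2 to Mcm7. They were found by symbol among 37991 Ensembl gene IDs, of which 32919 had a symbol, and all 10 had at least 10 counts in every library. The set was chosen by earlier results on the slopes of mRNA level after actinomycin D in these same libraries, in which loss of Cdt1 and Orc1 mRNA was slower in KO than in WT while the Mcm mRNAs were stable. The slopes after actinomycin D, and the levels at its start, are therefore described here without a test of these genes.

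KO cells were Cnot3 conditional knockout ESCs (strain C57BL/6 by the labels) given 0.1 µM 4-hydroxytamoxifen (4OHT), and WT cells were conditional knockout ESCs given DMSO. On day 3 of treatment, whole-cell (total) RNA and RNA from polysomes, which are mRNAs carrying several ribosomes, were sequenced in KO and WT. On day 2, 10 µg/ml actinomycin D, which blocks transcription, was added and total RNA was taken at 0, 4 and 8 h, again in KO and WT. Each of the 10 groups had 2 biological replicates, 20 libraries in all. The source label of the 4 WT libraries of day 3 reads E14Tg2a, another ESC line name, and whether KO and WT of day 3 were the same line is not stated there. The recombinase that cut the allele and the number of clones are not given in the sources used here, and an effect of 4OHT itself cannot be told apart from that of the deletion.

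Licensing is the loading of the Mcm2–7 helicase onto replication origins before S phase. The origin recognition complex, whose largest subunit is Orc1, binds the origin and is joined by the ATPase Cdc6, and Cdt1 then brings in the Mcm2–7 ring. Geminin, the product of Gmnn, binds Cdt1 from S phase to mitosis and keeps origins from being licensed again, and Cdt1 protein is itself destroyed in S phase through the ubiquitin ligases CRL4-Cdt2 and SCF-Skp2. Most of these genes are transcribed under E2F factors around the start of S phase. ESCs, which have a short G1 phase, are known for rapid licensing.

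On GRCm38, Cdt1 (ENSMUSG00000006585) spans chr8:122568015-122573554 and Orc1 (ENSMUSG00000028587) chr4:108579423-108614833, both on the plus strand. Cdc6 (ENSMUSG00000017499) spans chr11:98907801-98923940 on the plus strand and Gmnn (ENSMUSG00000006715) chr13:24751845-24761923 on the minus strand. Mcm5 lies on chromosome 8 with Cdt1, Mcm3 and Mcm6 on chromosome 1, and Mcm2, Mcm4 and Mcm7 on chromosomes 6, 16 and 5. All are protein-coding, and the words below lie in their 3′UTRs or around their transcription starts.

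The 3′UTRs and promoters of the set were read for short sequence words, shown here because decay and transcription are what the experiments bear on. The Pumilio motif TGTANATA, the letters bound by Pumilio proteins, which are known partners of CCR4-NOT, was searched on the transcript strand of the GENCODE M21 3′UTRs (GRCm38). It lay in 4 of the 10, in Cdt1 at base 362 of 474, in Orc1 at base 165 of 358, in Gmnn at base 144 of 224 and in Mcm4 at base 744 of 780. Each line gives 30 bases with the motif in capitals.
Cdt1, chr8:122573005-122573034, plus strand: attgggccttcTGTAAATAtgtgaagtgtg
Orc1, chr4:108614629-108614658, plus strand: gtaacatactaTGTATATAaagatatgtat
Gmnn, chr13:24751907-24751936, minus strand: aatccgttttaTGTAAATAgcattttcatt
Mcm4, chr16:15623915-15623944, minus strand: attaaatcttgTGTAAATAttacaataaat
For comparison, 3′UTRs within 20% of the same length were taken, 1 a gene, from genes with at least 10 counts in every library. Of these, the motif was in 12.2% for Cdt1, 9.03% for Orc1, 6.09% for Gmnn and 16.4% for Mcm4. The motif was not in Cdc6, and a relation of the motif to mRNA loss was not tested. The AU-rich pentamer ATTTA was present in 6 of the 10 (Cdt1, Orc1, Cdc6, Mcm2, Mcm3 and Mcm5), with up to 4 copies, in Mcm5. It was in 21.7% (Mcm7) to 76.7% (Mcm5) of the 3′UTRs of similar length from the same genes, as in 48.0% for Cdt1 and 40.1% for Orc1.

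In RefSeq promoters (GRCm38.p6, 250 bases before to 50 after each start), 4 E2F words, TTTCCCGC, TTTGGCGC, TTTCGCGC and TTTGCCGC, were searched on both strands. At least 1 was found in 7 of the 8 members with an entry, all but Mcm2, against 2.605% of 27025 genes with an entry. The windows below show the match in capitals as read on the strand of the gene, so that a match to the other strand appears as its reverse complement.
Cdt1, chr8:122568035-122568064, plus strand: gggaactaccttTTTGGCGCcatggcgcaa
Orc1, chr4:108579416-108579445, plus strand: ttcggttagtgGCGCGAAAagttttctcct
Cdc6, chr11:98908002-98908031, plus strand: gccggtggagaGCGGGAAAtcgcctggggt
Mcm3, chr1:20820275-20820304, minus strand: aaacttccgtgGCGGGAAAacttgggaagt
Mcm5, chr8:75109345-75109374, plus strand: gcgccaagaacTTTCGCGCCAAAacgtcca
Mcm6, chr1:128359797-128359826, minus strand: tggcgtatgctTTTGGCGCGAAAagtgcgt
Mcm7, chr5:138172030-138172059, minus strand: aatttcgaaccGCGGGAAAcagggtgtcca
The match shown began 33 bases after the start in Cdt1 and 20 after it in Mcm3, and it began before the start by 27 bases in Orc1, 138 in Cdc6, 153 in Mcm5, 110 in Mcm6 and 165 in Mcm7. In Mcm5 and Mcm6 the capitals hold 2 overlapping words on opposite strands. Further matches not shown began 39 bases after the start in Mcm3, 47 before it in Mcm6 and 17 after it in Mcm7, and a second start of Mcm7 had none. Gmnn and Mcm4 were not among the RefSeq promoters used here.

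Libraries held 27664391 to 35170012 gene counts in total RNA, 13832829 to 16688555 in polysomes and 14513891 to 33262905 in the actinomycin D series. Levels are given as CPM, read counts relative to library size after TMM scaling, which sets libraries to a common level by the bulk of genes. The 10 genes took 0.298% to 0.318% of counts in total RNA, 0.189% to 0.275% in polysomes and 0.395% to 0.491% in the actinomycin D series. The lowest share was in WT polysome replicate 2, whose level of several Mcm mRNAs was well below that of its replicate. The 4 total libraries of day 3 stood apart from the other 16, with 29568 to 32072 genes detected against 19537 to 21086, and 5.40% to 6.38% ambiguous reads against 2.53% to 3.09%. Multiply aligned reads were recorded only for those 4, at 10341991 to 15515077, and stood at 0 in the others. Differences between polysome and total RNA therefore also compare libraries of unlike kind. Cnot3 mRNA in KO was between 6.42% and 18.3% of WT over the 5 pairs of groups. Orc1 shares 376 of its 3479 exon bases with Gm12743 on the other strand, and Mcm7 shares 321 of 4426 with Ap4m1 and 64 with Cops6. Strand use in counting was not stated by these sources, so a part of these counts could belong to the partner. Gm12743 had at most 149 counts in a library, against 9433 for Cops6.

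Cdt1 showed the widest split between the arms after transcription was blocked. In KO it had 213 and 223 CPM at 0 h, 161 and 156 CPM at 4 h, and 114 and 108 CPM at 8 h. In WT it had 193 and 198 CPM at 0 h, 30.2 and 29.1 CPM at 4 h, and 13.55 and 14.4 CPM at 8 h. Both KO libraries lay above both WT libraries at each time, by a small margin at the start and a wide one later. As a share of the 0 h mean, 72.8% ± 1.75 was left at 4 h in KO and 15.2% ± 0.402 in WT, and 50.9% ± 2.05 was left at 8 h in KO and 7.16% ± 0.304 in WT (SD, n = 2). At 8 h the KO level was 7.97 times that of WT. In bulk RNA, a lower level in every cell and fewer cells with the mRNA cannot be told apart.

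Most of the Cdt1 difference arose in the first interval. Between 0 and 4 h, Cdt1 changed by -0.46 log2 in KO and by -2.72 in WT, and between 4 and 8 h by -0.52 in KO and by -1.09 in WT. Fitted over all 3 times, its slope was -0.12 ± 0.04 log2 per hour in KO and -0.49 ± 0.04 in WT (SE of the fit). The slope difference, KO minus WT, was 0.36 ± 0.05 log2 per hour. A larger one was seen in 26 of 15823 genes, and in 0 of the 5646 genes with an average log2 CPM of at least 5. The set was chosen on these slopes. This rank and those of Orc1, Cdc6 and Gmnn below therefore describe that choice and test nothing.

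Orc1 was lost more slowly than Cdt1 in both arms. KO libraries held 149 and 150.3 CPM at 0 h, 142 and 139 CPM at 4 h, and 126 and 125.5 CPM at 8 h. WT libraries held 119 and 119 CPM at 0 h, 61.05 and 58.0 CPM at 4 h, and 31.25 and 31.5 CPM at 8 h. The lowest KO library of any time was above the highest WT library of any time. At 8 h, 84.0% ± 0.283 of the 0 h level was left in KO and 26.5% ± 0.137 in WT (SD, n = 2), and the KO level was 4.01 times that of WT. Unlike Cdt1, Orc1 in WT went down by a similar amount in each interval, by 0.99 and 0.93 on the log2 scale, against 0.09 and 0.16 in KO. The slope was -0.03 ± 0.01 log2 per hour in KO and -0.24 ± 0.01 in WT, and 221 genes had a larger slope difference than its 0.21 ± 0.01.

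Cdc6, the loader that works beside Orc1, was lost in both arms. It had 92.6 and 95.2 CPM at 0 h, 50.4 and 50 CPM at 4 h, and 33.8 and 35.2 CPM at 8 h in KO. The WT values were 112.5 and 111 CPM at 0 h, 32.8 and 31.15 CPM at 4 h, and 19.0 and 16.9 CPM at 8 h. KO thus lay below WT at the start and above it at 4 and 8 h, with no overlap at any time. At 8 h, 36.7% ± 1.08 was left in KO and 16.1% ± 1.36 in WT (SD, n = 2). Its slope was -0.18 ± 0.02 log2 per hour in KO and -0.33 ± 0.02 in WT, a difference of 0.15 ± 0.03 that 577 genes exceeded. As with Cdt1, the arms differed more in the first interval (-0.90 log2 in KO and -1.80 in WT) than in the second (-0.54 in KO and -0.82 in WT).

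Gmnn, the inhibitor of Cdt1, started level between the arms and parted late. KO had 73.0 and 69.7 CPM at 0 h, 92.1 and 89.0 CPM at 4 h, and 102 and 101 CPM at 8 h. WT had 72.7 and 76.6 CPM at 0 h, 76.5 and 80.15 CPM at 4 h, and 56.45 and 55.6 CPM at 8 h. The arms overlapped at 0 h and not at the later times. Between 4 and 8 h Gmnn changed by 0.16 log2 in KO and by -0.48 in WT, and at 8 h it stood at 142% ± 0.496 of its start in KO and 75.1% ± 0.805 in WT (SD, n = 2). CPM are shares of the RNA that remains, so a value above 100% means that Gmnn was lost more slowly than the bulk of mRNA, not that it was made. The slope difference was 0.12 ± 0.02 log2 per hour, exceeded by 1067 genes.

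**Figure D1:**
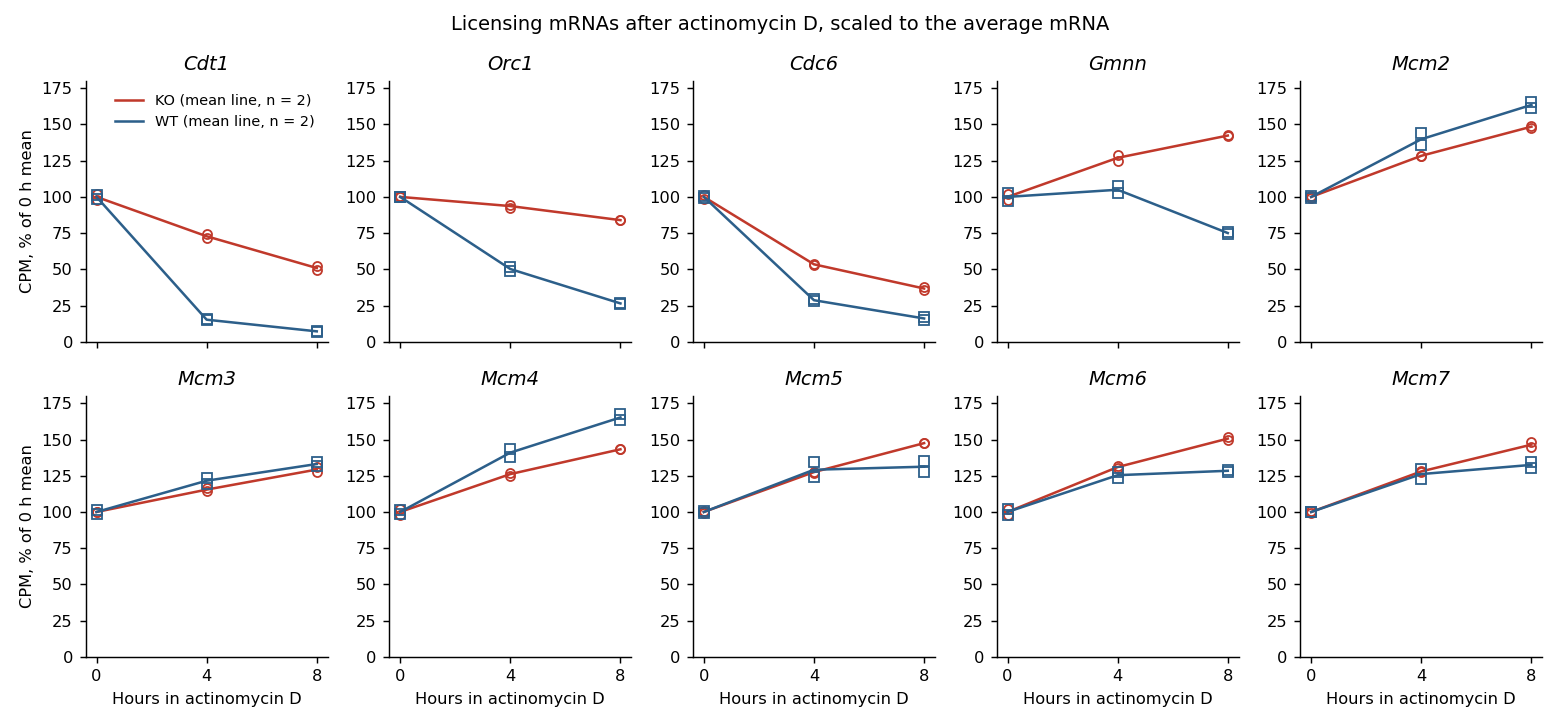
Each panel plots the level of a licensing mRNA at 0, 4 and 8 h of actinomycin D as a percent of the 0 h mean CPM of its own arm, with KO as circles and WT as squares, 1 library a point, and lines through the means of 2 replicates. The arms separate in Cdt1, Orc1, Cdc6 and Gmnn, with 50.9% of Cdt1 left at 8 h in KO and 7.16% in WT, while the 6 Mcm panels stay above 100% in both.

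Relative to the bulk of mRNA, the 6 Mcm mRNAs were not lost in either arm. Under ribosomal protein scaling, given below, their slopes were below 0 in both. Over 4 and 8 h, single libraries stood at 114% to 152% of the 0 h mean in KO and at 120% to 167% in WT. At 8 h the means were 148.5% in KO and 163.5% in WT for Mcm2, 129% and 133% for Mcm3, and 143% and 165% for Mcm4. For Mcm5 they were 147.5% in KO and 131% in WT, for Mcm6 151% and 128%, and for Mcm7 146.5% and 132.5%. KO was thus the lower arm for Mcm2, Mcm3 and Mcm4 and the higher one for the other 3, so that the 6 did not share a direction. Their slope differences ran from -0.03 log2 per hour in Mcm4 to 0.03 in Mcm6, with a median of 0.0064, close to the -0.013 of all 15823 genes. Across the 12 libraries the 15 pairs of Mcm mRNAs had Pearson correlations of log2 CPM from 0.70 to 0.99 (median 0.91), which share library and time and are given as a description.

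Because all levels are relative, the slopes were also scaled to other yardsticks and fitted in other ways. Besides scalings, the settings included filters, DESeq2, a replicate block, each time interval, the ratio to the Mcm mRNAs and each library left out. The slope difference of Cdt1 stayed between 0.14 and 0.57 log2 per hour over 24 settings, and that of Orc1 between 0.19 and 0.27. For Cdt1 the 0.57 was the interval from 0 to 4 h and the 0.14 that from 4 to 8 h. For Cdc6 it lay between 0.07 and 0.22 and for Gmnn between 0.07 and 0.17, above 0 in 24 of 24 settings for each of the 4. All settings reuse the libraries on which the set was chosen, so these counts describe only how processing moves the values. The Mcm differences stayed between -0.04 and 0.09. They were above 0 in 23 of 23 settings in Mcm6 and Mcm7, in 22 in Mcm5, in 7 in Mcm3 and in 2 each in Mcm2 and Mcm4, so their sign changed with the setting in 4 of the 6. The yardstick also set the sign of the Mcm slopes themselves. Scaled to ribosomal protein mRNAs they were -0.059 to -0.032 log2 per hour in KO and -0.099 to -0.053 in WT, against 0.046 to 0.074 in KO and 0.045 to 0.091 in WT with TMM. Likewise the slope of Gmnn in KO was -0.04 under ribosomal protein scaling, and that of Orc1 in KO was 0.04 under mitochondrial scaling. The data thus give differences between arms, and loss in absolute terms was not measured.

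Ratios within a library need no scaling. Their denominator, the Mcm mRNAs, was taken as stable when the set was chosen from these same libraries. The ratios therefore describe the contrast used in that choice and do not test it. Cdt1 had 68.8 to 71.5 counts per 1000 counts of Mcm2 to Mcm7 at 0 h in KO, 40.1 to 41.1 at 4 h and 24.1 to 25.5 at 8 h. In WT the ratio was 58.0 to 60.0 at 0 h, 6.86 to 6.95 at 4 h and 2.86 to 3.11 at 8 h. For Orc1 it was 28.1 to 28.2 at 8 h in KO and 6.60 to 6.81 in WT. Gmnn kept its ratio to the Mcm mRNAs in KO, with 22.4 to 23.6 at 0 h and 22.7 to 22.8 at 8 h, whereas in WT it had 21.9 to 23.3 at 0 h and 11.9 to 12.02 at 8 h.

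The balance of Cdt1 to its inhibitor was followed per length of transcript. Cdt1 per kb over Gmnn per kb had means of 1.57, 0.901 and 0.561 at 0, 4 and 8 h in KO, and of 1.35, 0.195 and 0.129 in WT. KO libraries lay above WT libraries at every time, at 0 h with 1.501 to 1.64 in KO and 1.33 to 1.36 in WT. On day 3 the ratio was 0.936 and 0.985 in KO total RNA and 0.699 and 0.844 in WT total RNA, without overlap. In polysomes it was 0.780 and 0.825 in KO and 0.703 and 0.820 in WT, and the arms overlapped. The difference of mRNA balance seen at 4 and 8 h of transcription block was therefore far larger than that in cells that went on transcribing.

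**Figure D2:**
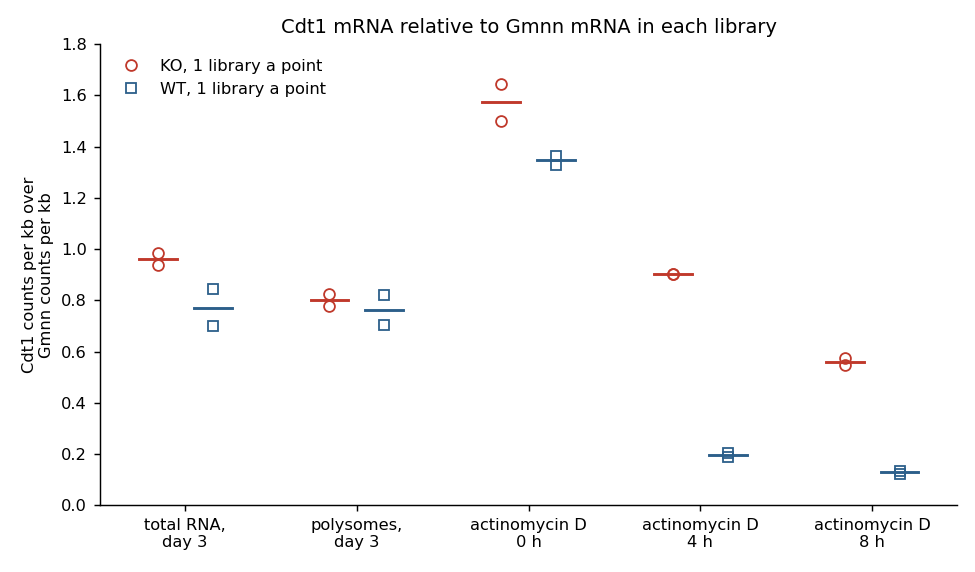
The plot shows counts per kb of Cdt1 over counts per kb of Gmnn in each of the 20 libraries, with KO circles left of WT squares and a bar at the mean of 2 replicates. The mean at 8 h of actinomycin D was 0.561 in KO and 0.129 in WT, against 0.802 in KO and 0.761 in WT in polysomes of day 3.

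Before actinomycin D, on day 2, the loaders and the helicase stood at different levels. Per kb of transcript, the most abundant were Mcm3 (205 ± 0.575 CPM per kb in KO and 223 ± 4.07 in WT) and Mcm6 (203 ± 5.73 in KO and 201 ± 5.0 in WT; SD, n = 2). Mcm5 and Mcm2 came next, with 177 ± 1.01 and 176 ± 1.2 in KO and 190 ± 2.44 and 198 ± 1.66 in WT, and did not differ beyond their spread in KO. Mcm7 followed with 118.5 ± 1.19 in KO and 125 ± 0.554 in WT. Cdt1 (99.4 ± 3.20 in KO and 89.2 ± 1.63 in WT) was close to Mcm4 (96.8 ± 2.83 in KO and 102 ± 2.20 in WT), and with these lengths their order differed between the arms. The lowest were Gmnn, with 63.3 ± 2.05 in KO and 66.2 ± 2.47 in WT, Orc1, with 49.7 ± 0.225 in KO and 39.4 ± 0.00584 in WT, and Cdc6, with 36.7 ± 0.734 in KO and 43.6 ± 0.461 in WT. These lengths are those of 1 transcript a gene, and the order of Cdt1 and Mcm4 and of Orc1 and Cdc6 rests on them. Per kb of the union of all exons, Cdt1 was below Mcm4 in both arms (69.3 and 96.75 in KO, 62.15 and 102 in WT), Orc1 was above Cdc6 in both (43.1 and 18.0 in KO, 34.1 and 21.35 in WT), and the order of the Mcm mRNAs also differed from that above, with Mcm5 second and Mcm2 below Mcm4.

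At this time, given as a description, 2 of the 10 were higher in KO without overlap and 6 were lower. Of all genes, 39.2% were higher and 41.5% lower by that rule. Orc1 had the largest fitted log2 difference (0.34 ± 0.04, SE), followed by Cdt1 (0.16 ± 0.04), and Cdc6 had the lowest (-0.25 ± 0.05). Gmnn was at -0.07 ± 0.05 and the Mcm mRNAs lay between -0.16 (Mcm2) and 0.01 (Mcm6). The signs depended on the yardstick, since all 10 were above 0 when libraries were scaled to ribosomal protein or mitochondrial mRNAs. The median of all genes at 0 h was -0.01 with TMM, 0.41 with ribosomal protein scaling and 0.47 with mitochondrial scaling.

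Total RNA of day 3 came from separate libraries that the choice of genes did not use, so the members were tested there. Cdt1 had 163 and 161 CPM in KO and 142.5 and 153 CPM in WT. Orc1 had 121 and 120.5 CPM in KO and 101 and 103 CPM in WT. Both were higher in KO without overlap between the arms.

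Cdc6 went the other way, with 134 and 127 CPM in KO and 167 and 163.5 CPM in WT. Gmnn had 89.4 and 84.3 CPM in KO and 105 and 93.3 CPM in WT. Mcm2 had 461 and 463 CPM in KO and 598 and 623 CPM in WT, the largest gap of the set. Each of these had both KO libraries below both WT libraries.

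The same held for the rest of the ring. Mcm3 had 471 and 464 CPM in KO and 566 and 589 CPM in WT, and Mcm4 had 311 and 322 CPM in KO and 376 and 371 CPM in WT. Mcm5 had 573 and 542.5 CPM in KO and 645 and 657 CPM in WT. The gap was narrower in Mcm6, with 497 and 501.5 CPM in KO and 539 and 553 CPM in WT, and in Mcm7, with 401 and 398 CPM in KO and 442 and 457 CPM in WT. Over the set, 2 of 10 were higher and 8 lower without overlap, where 40.8% and 39.4% of all genes were.

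By edgeR's quasi-likelihood test on the 8 libraries of day 3, with Benjamini-Hochberg adjustment over 18303 genes, 0 of the 10 differed in total RNA, where 28.2% of all genes did. At an unadjusted p under 0.05 there were also 0 of 10, where 23.0% of all genes were higher and 19.0% lower, and DESeq2 called 0. The log2 change was 0.24 ± 0.13 in Orc1 (SE; 95% interval -0.05 to 0.54, adjusted p = 0.188) and 0.13 ± 0.14 in Cdt1 (-0.18 to 0.45, adjusted p = 0.512). It was -0.40 ± 0.21 in Mcm2 (-0.85 to 0.05, adjusted p = 0.161) and -0.34 ± 0.17 in Cdc6 (adjusted p = 0.157). Gmnn (-0.19) and the other Mcm mRNAs (-0.31 to -0.13) had adjusted p from 0.240 to 0.635. The median was -0.21 over the 10 and -0.23 over the 6 Mcm mRNAs, against 0.01 over all genes.

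This count rested on the WT polysome libraries, whose spread enters the joint fit. In a fit of the 4 total libraries alone, edgeR called Orc1 higher (adjusted p = 0.00175) and 8 members lower, from Mcm2 (3.03e-05) to Mcm6 (0.0447), with Cdt1 not called (0.0605), where 28.9% of all genes were called higher and 28.9% lower. Without WT polysome replicate 1 the joint fit called Orc1 higher (adjusted p = 0.0302) and 6 lower, and without replicate 2 the same numbers, among them Mcm2 (adjusted p of 0.000894 and 0.000848). Of all genes, 22.1% were then called higher and 24.5% or 24.6% lower. The direction of the 8 lower members depended on scaling, since with ribosomal protein scaling all of them were above 0 and Cdt1 (0.70, adjusted p = 0.0132) and Orc1 (0.82, adjusted p = 0.00224) were called higher, where 48.1% of all genes were. That scaling moved the median of all genes to 0.59. With library totals, which moved that median to 0.28, Orc1 alone was called higher (0.50, adjusted p = 0.0144), as were 28.3% of all genes.

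**Figure D3:**
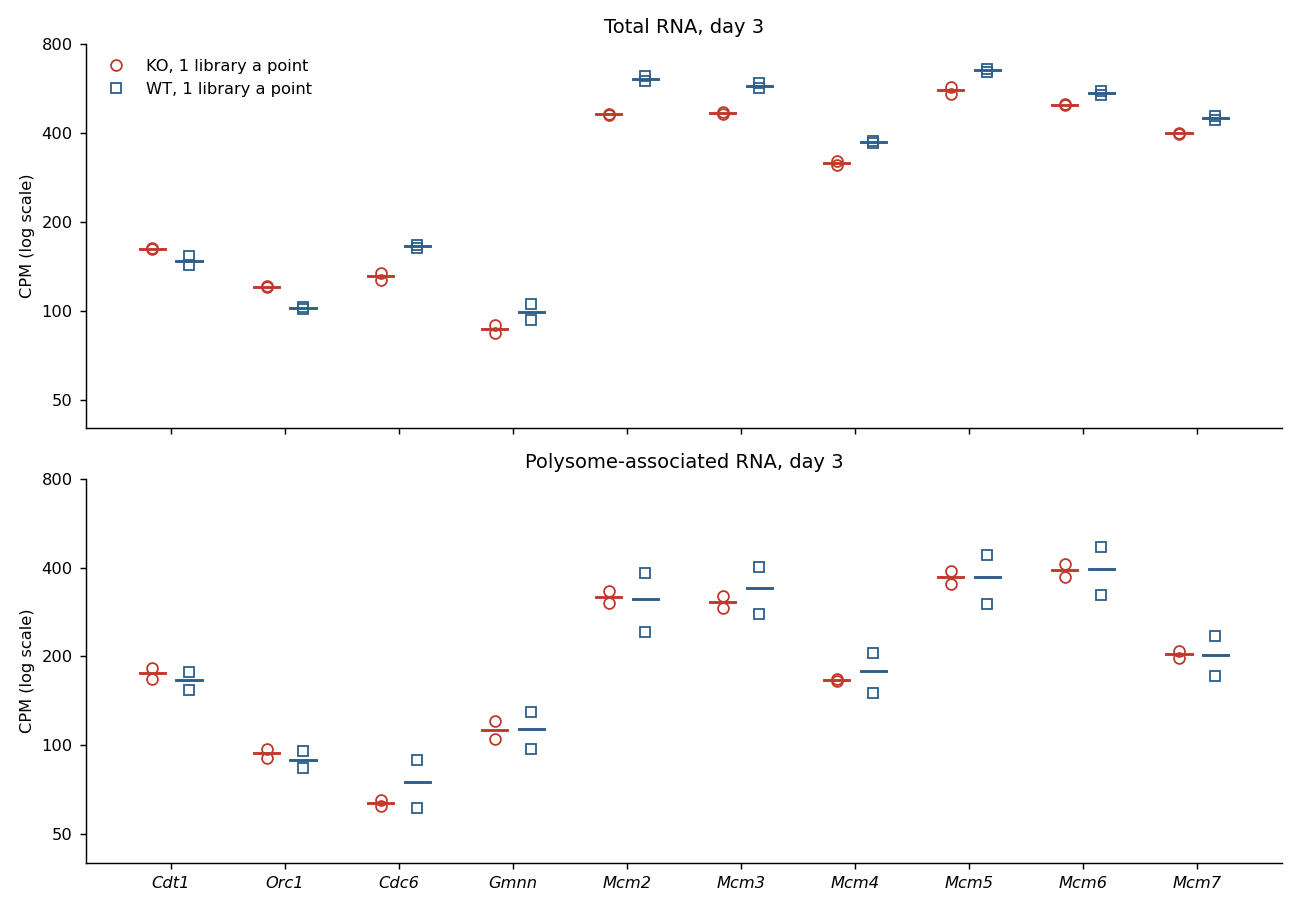
CPM on a log axis are plotted for the 10 mRNAs in total RNA (upper panel) and in polysomes (lower panel) of day 3, with KO circles left of WT squares, 1 library a point and a bar at the mean of 2 replicates. In total RNA the KO points of Cdt1 and Orc1 lie above those of WT and the other 8 lie below, as in Mcm2 with 461 and 463 CPM in KO and 598 and 623 CPM in WT, while in polysomes the 2 WT points of most mRNAs span those of KO.

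In polysomes the arms were not separated for any member. Cdt1 had 183 and 168 CPM in KO and 177 and 154.5 CPM in WT, and Orc1 had 90.9 and 97.2 CPM in KO and 95.3 and 83.8 CPM in WT. Cdc6 had 62.2 and 65.5 CPM in KO and 89.3 and 61.3 CPM in WT. Mcm2 had 334 and 304 CPM in KO and 382 and 243 CPM in WT. The WT replicates of Mcm2 lay farther apart than the arms, and both KO values fell between them, as they did for Gmnn, Cdc6 and each of the other Mcm mRNAs. Without overlap, 0 of 10 were higher and 0 lower, where 27.9% and 34.0% of all genes were.

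By the joint edgeR fit 0 of 10 members differed in polysomes (37.0% of all genes did). At an unadjusted p under 0.05 there were 0 of 10, where 20.1% of all genes were higher and 26.9% lower, and DESeq2 called 0. The log2 changes ran from -0.24 in Cdc6 to 0.08 in Cdt1, with adjusted p from 0.315 to 1.0. Polysome association, the change in polysomes minus that in total RNA, gave 0 of 10 as well, where 0.0109% of all genes were called, 0.00546% in each direction. At an unadjusted p under 0.05 it called 0 of 10, where 3.68% of all genes were higher and 8.91% lower, and DESeq2 called 0. It ran from -0.17 in Orc1 to 0.43 in Mcm2 (adjusted p = 0.551).

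These counts of 0 also rested on single WT libraries and on the scaling. Without WT polysome replicate 1, edgeR called Mcm2 (0.39, adjusted p = 0.00602), Mcm5 (0.30, adjusted p = 0.0282), Mcm6 (0.27, adjusted p = 0.0385) and Mcm7 (0.25, adjusted p = 0.0481) higher in KO polysomes, where 20% of all genes were. Association was then called higher in 8 members, all but Cdt1 and Orc1, led by Mcm2 (0.82, adjusted p = 0.000986), where 9.05% of all genes were. Without WT polysome replicate 2, it was Cdc6 (-0.48, adjusted p = 0.00203), Mcm3 (-0.39, adjusted p = 0.00669) and Mcm4 (-0.30, adjusted p = 0.0201) that were called lower, where 21.4% of all genes were. With ribosomal protein scaling Cdt1, Orc1, Gmnn, Mcm2 and Mcm7 were called higher in polysomes, as were 38.9% of all genes. The sign of the Mcm changes in polysomes was therefore not fixed by these 4 libraries.

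**Figure D4:**
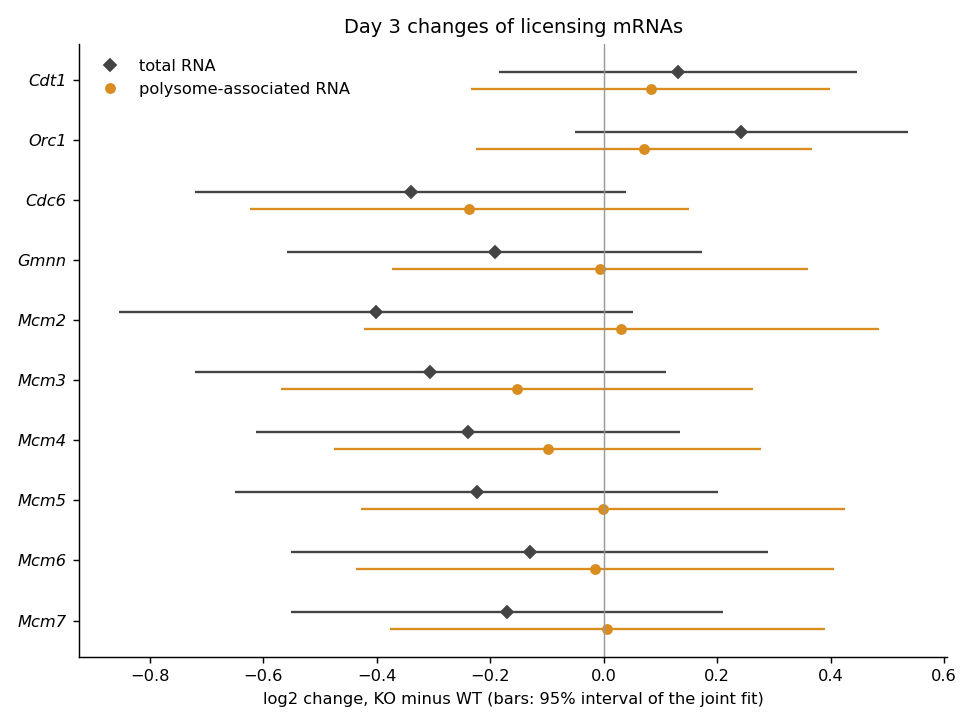
Log2 changes of day 3, KO minus WT, are plotted for the 10 mRNAs in total RNA (diamonds) and in polysomes (circles), with bars for the 95% interval of the joint fit of 8 libraries. Every bar crosses 0, among them that of Orc1 in total RNA (-0.05 to 0.54) and that of Mcm2 in total RNA (-0.85 to 0.05).

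The wider replication and G1/S machinery was covered by 9 lists with 112 genes, 110 of them tested. In the slope difference after actinomycin D, edgeR called 38 of 110 higher, meaning that they were lost more slowly in KO relative to other mRNAs, and 5 lower, against 10.2% and 8.78% of all genes. Higher calls were 3 of 5 other ORC subunits, 2 of 5 Mcm relatives, 1 of 3 licensing helpers, 6 of 13 origin firing factors, 2 of 3 fork protection factors and 3 of 24 polymerase and clamp genes. They were also 5 of 14 turnover factors of Cdt1 and geminin, 7 of 25 cyclin, kinase and E2F–RB genes and 9 of 18 other G1/S genes. The lists were drawn up with earlier results known, and the counts describe them.

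Among the genes named for the smallest adjusted p of their list (2.19e-06 to 0.0255 by edgeR), the slope difference was largest in Slbp, which binds the stem-loop of histone mRNAs (0.28 ± 0.02 log2 per hour, SE). Slbp had 104 and 101 CPM at 8 h in KO and 22.2 and 21.4 CPM in WT, after 103 and 108 CPM at 0 h in KO and 105 and 109 CPM in WT. Equal at the start, the arms were thus far apart at the end. Cdca7, a chromatin protein induced by Myc and E2F, showed the same course, with 173 and 171 CPM at 8 h in KO and 41.2 and 42.4 CPM in WT (slope difference 0.27 ± 0.02). The clamp loader subunit Rfc3 (0.22 ± 0.02) and cyclin A2, Ccna2 (0.16 ± 0.02), came next.

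Nearer to licensing, Kat7, the histone acetyltransferase that acts at origins, differed by 0.15 ± 0.02, Clspn, the checkpoint mediator claspin, by 0.14 ± 0.01 and the deubiquitinase Usp1 by 0.14 ± 0.01. Kat7 had 451.5 and 435.5 CPM at 8 h in KO and 165.5 and 162 CPM in WT, without overlap. Unlike Slbp, it was already higher in KO at 0 h, by 0.23 ± 0.04 log2 (SE). Of the ORC, Orc2 (0.11 ± 0.01), Orc4 (0.10 ± 0.01) and Orc5 (0.07 ± 0.01) were called, each with a smaller difference than the 0.21 of Orc1. The origin firing factors Gins1 (0.13), Wdhd1 (0.12) and Dbf4 (0.09), the activator of the Cdc7 kinase, were called, as were Mcm10 (0.12), which activates the loaded helicase, and Mcmbp (0.06), which binds Mcm subunits. So were Timeless (0.05), the partner of Tipin at forks, the clamp loader subunit Rfc4 (0.08), the APC/C activator Fzr1 (0.10), the F-box protein Ccnf (0.08), the phosphatase Cdc25a (0.12) and the repressor E2f8 (0.10). The 2 lower calls named were Pole, the catalytic subunit of polymerase epsilon (-0.04), and Cul4a, the cullin of the ligase that destroys Cdt1 (-0.07).

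With 1 library left out, these calls held in all 12 repeats except for Mcmbp and Timeless, which held in 7, and Pole, which held in 6. Pole was also lost under RLE, library totals, DESeq2 and both yardstick scalings, and Cul4a under the yardstick scalings. A separate list of G2/M genes, which are used later in the cycle, had 10 of 19 higher and 2 lower in the slope difference. Whether the lists differ from each other was not tested.

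In total RNA of day 3, 22 of the 110 listed genes were lower and 2 higher by edgeR, against 12.2% and 16% of all genes. E2f2, a transcription factor of the E2F family, had 12.9 and 13.35 CPM in KO and 24.6 and 21.6 CPM in WT (log2 -0.82), and Cdkn1b, the CDK inhibitor p27, had 15.97 and 14.4 CPM in KO and 28.4 and 24.55 CPM in WT (-0.80). Both fell in KO, and both calls held without any 1 of the 8 libraries. Gins2, a subunit of the GINS complex that joins Mcm2–7 in the active helicase, had 27.5 and 29.05 CPM in KO and 46.5 and 50.1 CPM in WT (-0.77), and its call was lost without total KO replicate 1 (adjusted p = 0.0561).

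Lower too, among genes named by that rule, were Kmt5a (-0.69), the histone H4 methyltransferase degraded together with Cdt1, thymidine kinase Tk1 (-0.62), the polymerase epsilon subunits Pole4 (-0.56) and Pole3 (-0.42), Gins3 (-0.53), Tipin (-0.49), Mcm10 (-0.49), Fbxo5 (-0.47), which inhibits the APC/C, and Skp2 (-0.41), the F-box protein that targets Cdt1. Rb1, the E2F repressor, was higher (0.79). Adjusted p was 0.00305 to 0.0492 over these 13 genes. The calls of Mcm10, Gins3, Tipin, Fbxo5, Skp2 and Tk1 were lost without any 1 of the 4 total libraries, and of the 8 repeats with a library left out Kmt5a and Rb1 held in 6, Pole4 in 5 and Pole3 in 2. Under ribosomal protein scaling Mcm10, Gins3, Tipin, Pole4, Pole3, Fbxo5 and Skp2 were above 0. With library totals in place of TMM, 13 listed genes were higher and 7 lower, and with ribosomal protein scaling 38 were higher and 0 lower, so the split between directions was set by the scaling. Of all genes, 28.3% were higher with library totals and 48.1% with ribosomal protein scaling.

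In polysomes 32 of the 110 were lower and 5 higher, against 21.1% and 15.9% of all genes. E2f2 and E2f1 had the lowest log2 changes of the genes named, with E2f2 at 11.5 and 12.7 CPM in KO and 34.4 and 37.7 CPM in WT (-1.58), and E2f1 at 27.7 and 26.7 CPM in KO and 62.5 and 82.1 CPM in WT (-1.41). These arms were far from overlap. Cdkn1b (-1.09), Pole (-0.85), Orc5 (-0.82), Kmt5a (-0.79), Dtl (-0.78), which encodes Cdt2, the substrate receptor of the ligase that destroys Cdt1, and Mcm10 (-0.64) also fell, and the calls of these 8 held without any 1 library, though that of Mcm10 was lost in a fit of the 4 polysome libraries alone (adjusted p = 0.0687). Mybl2 (-0.72), Brca1 (-0.67), Mtbp (-0.62), Gins2 (-0.62), Pole4 (-0.60), Skp2 (-0.58), Mcm9 (-0.55), Gins3 (-0.53), Tk1 (-0.51) and Pola1 (-0.49) were lower, and the origin-binding factor Lrwd1 was higher (0.43). Adjusted p by edgeR was 6.96e-05 to 0.0489 over the 19 genes named. With a library left out, the calls of Mybl2, Brca1, Mtbp, Pole4 and Skp2 held in 7 of 8 repeats, that of Lrwd1 in 5, those of Gins2 and Gins3 in 3 and those of Mcm9, Pola1 and Tk1 in 2. The fit of the 4 polysome libraries alone lost the calls of 12 of the 19, and library totals lost 9. With ribosomal protein scaling 31 listed genes were higher and 2 lower in polysomes, and Mcm9, Gins3, Pole4, Pola1, Skp2 and Tk1 were above 0. Of all genes, 38.9% were higher there under that scaling. No listed gene (0 of 110) was called in polysome association.

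At 0 h on day 2, 62 of the 110 were lower and 14 higher by edgeR, against 32.9% and 29.8% of all genes. Kmt5a (-0.63), Gins3 (-0.74), Gins2 (-0.50) and Dtl (-0.54) were lower in KO before actinomycin D, as was the cyclin Ccnd1 (-1.08), and Rb1 was higher (1.13). Also higher among the genes named by smallest adjusted p were Lrwd1 (0.27), Kat7 (0.23), Mcm9 (0.21), Mcm8 (0.20) and Timeless (0.12). Mcm9 was lower in polysomes of day 3. The others named were lower, from Tk1 (-0.64), E2f4 (-0.54), Pole4, Pole3 and Usp1 (-0.47 each) to Jade1 (-0.15). Between them lay Tipin, Rpa2, Mybl2, Skp1, Dbf4, Orc6, Orc2, Orc5 and Mcm10. With ribosomal protein scaling 75 were higher and 12 lower. Over the settings other than leaving a library out, calls of all genes ran from 2681 to 10234 higher and from 184 to 6898 lower. The same caution on scaling thus holds for day 2.

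By log2 CPM over the 12 libraries of the actinomycin D series, Wdr43 (Pearson r = 0.998), Ppan (0.997) and Ngrn (0.996) were most like Cdt1, and Med17, Map1s and Ttc1 (0.997 each) most like Orc1, among 9252 genes compared. Over the 8 libraries of day 3 the nearest to Cdt1 were Cdca7l (0.986), Rbm48 (0.982) and Nars2 (0.974), and to Orc1 Spdl1 (0.990), Myo7a (0.988) and Ddx31 (0.983), among 10189 genes. Cdt1 and Orc1 themselves correlated at 0.973 over the 12 libraries and at -0.166 over the 8. These values are descriptions, since libraries of a group share arm and time.

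Markers of other states moved with the arms. Unlike the CPM above, the sums given here are relative to library totals, without TMM scaling. The summed level of 20 pluripotency genes was 4556 to 4681 CPM in KO total RNA and 7247 to 7450 CPM in WT, and at 0 h on day 2 it was 5935 to 6016 CPM in KO and 7859 to 7889 CPM in WT. The 16 trophectoderm genes summed to 723 to 735 CPM in KO total RNA and 177 to 192 CPM in WT, and to 397 to 406 CPM in KO and 197 to 208 CPM in WT at 0 h. The 11 feeder fibroblast genes summed to 51.6 to 57.8 CPM in KO total RNA and 24.3 to 27.4 CPM in WT. At 0 h they summed to 60.9 to 64.7 CPM in KO and 36.9 to 37.6 CPM in WT, with Lum, Dcn and Fap at 0 in both arms. By edgeR 4 of the 6 tested at 0 h were higher in KO and 0 lower, against 29.8% and 32.9% of all genes. The 19 G2/M genes summed to 5476 to 5537 CPM in KO total RNA and 4922 to 5182 CPM in WT, although by edgeR 0 of the 19 were called higher there and 2 lower, Birc5 (-0.62) and Top2a (-0.53). The part of these shifts in the levels and slopes of the licensing mRNAs was not tested.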

How the data were processed

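The authors deposited a table of raw read counts by gene for each library, made with STAR 2.3.0e on mm9 and HTSeq per the submitters' processing notes. The HTSeq version, strand setting and poly(A) selection are not given in the sources used here. Rows of unassigned reads were left out. Symbols, positions and 3′UTRs came from GENCODE M21 (GRCm38) by gene ID, and promoters from RefSeq (GRCm38.p6). No coordinates were taken from mm9.

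A model covered the 8 libraries of day 3 and another the 12 of the actinomycin D series, both with edgeR 4.0.16 in R 4.3.3 (TMM, filterByExpr with minimum count 10, robust quasi-likelihood F-tests, Benjamini-Hochberg over all genes, threshold 0.05). Slopes took hours as a number. Members had 256 to 30077 counts a library, so the spread between 2 replicates, more than counting error, limits precision. Alternatives were RLE, library totals, no filter, a 1 CPM filter, DESeq2 1.42.0, a replicate block, 4 libraries alone, scaling to ribosomal protein or mitochondrial mRNAs (yardsticks), time as a factor, the ratio to Mcm2 to Mcm7 and each library left out. A fit of the 0 h libraries alone was added after seeing the data. Named were all members, up to 3 listed genes a list and comparison with the smallest adjusted p under 0.05, the 3 genes most like Cdt1 and Orc1 (average log2 CPM of at least 3), and Cnot3. Members and lists were chosen with earlier results of these data known. The procedure was tested on simulated data. Figures used matplotlib 3.10.9 and Python 3.11.15.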

Additional observations from a re-analysis of the deposited data

Results flagged for a closer look

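In 3 of the 10 members every KO library lay on one side of the WT libraries at one time of the actinomycin D series and on the other side at another, which 13.0% of 15823 genes did. The differences between times were not tested as such. For Cdc6 the log2 level of KO relative to WT was -0.25 at 0 h, 0.65 at 4 h and 0.94 at 8 h, so that it differed by 0.90 between 4 and 0 h and by 1.19 between 8 and 0 h. For Mcm5 it was -0.10 at 0 h, -0.12 at 4 h and 0.06 at 8 h, differing by 0.17 between 8 and 0 h and by 0.19 between 8 and 4 h. For Mcm7 it was -0.08 at 0 h, -0.06 at 4 h and 0.07 at 8 h, differing by 0.14 between 8 and 0 h and by 0.12 between 8 and 4 h. These changes of side depend on the scaling, since all 10 members were higher in KO already at 0 h under ribosomal protein or mitochondrial scaling.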

How the results depend on the processing

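All levels are relative to the scaling, and in the joint fit of day 3 the spread of the WT polysome libraries limits what is called. Members called higher in total RNA were 1 with library totals, 2 with ribosomal protein scaling and 1 in 4 libraries alone, and 8 were lower in 4 libraries alone. Of all genes, 28.3%, 48.1% and 28.9% were called higher by these settings in turn, and 28.9% lower in 4 libraries alone. Ribosomal protein scaling called 5 higher in polysomes, where 38.9% of all genes were. For the repeats below with a member called, the shares of all genes stand with the results of day 3. Leaving out each library gave 0 to 1 members higher and 0 to 6 lower in total RNA, 0 to 4 higher and 0 to 3 lower in polysomes, and 0 to 8 higher in association.

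Listed genes higher in total RNA were 1 under RLE, without a filter and with DESeq2, 13 with library totals, 38 with ribosomal protein scaling and 12 in 4 libraries alone (0 to 10 leaving out a library). Lower were 7, 0 and 57 with library totals, ribosomal protein scaling and 4 libraries, and 34 with DESeq2 (4 to 54). In polysomes higher were 15, 31 and 3 with library totals, ribosomal protein scaling and 4 libraries (1 to 20), and lower 12, 2 and 9 (16 to 64). In the slope difference 68 were higher with ribosomal protein scaling, and lower were 2 under RLE and library totals, 11 with a 1 CPM filter and 0 under both yardsticks (2 to 11; higher 30 to 41). At 0 h higher were 9 under RLE and DESeq2, 39 with library totals, 75 with ribosomal protein and 25 with mitochondrial scaling, and lower 12 and 1 under the yardsticks. Calls of all genes moved as well over the settings other than leaving a library out. They ran from 1927 to 8805 higher and 297 to 5467 lower in total RNA, and from 1860 to 7117 and 909 to 4025 in polysomes. In the slope difference they ran from 1447 to 3679 and 9 to 1762, and at 0 h from 2681 to 10234 and 184 to 6898.

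The slope difference of Cdt1 was 0.38, 0.40 and 0.42 with library totals, ribosomal protein and mitochondrial scaling, 0.57 for 0 to 4 h and 0.14 for 4 to 8 h (0.34 to 0.39 leaving out a library). Orc1 gave 0.22 under RLE and DESeq2, 0.23, 0.25 and 0.27 with those 3 scalings, 0.23 and 0.19 by interval and 0.21 as a ratio to Mcm2 to Mcm7 (0.21 to 0.21). Cdc6 gave 0.17, 0.19 and 0.21 with those 3 scalings, and 0.22 and 0.070 by interval (0.14 to 0.18). Gmnn gave 0.13, 0.15 and 0.17 with the same 3 scalings, and 0.069 and 0.16 by interval (0.10 to 0.13). The Mcm median gave 0.015 under RLE and DESeq2, 0.024, 0.045 and 0.063 with the 3 scalings, and -0.012 and 0.019 by interval (0.00091 to 0.012). At 0 h the Mcm median was -0.23 under RLE and DESeq2, 0.061, 0.33 and 0.40 with the 3 scalings, -0.12 without a filter, -0.069 with a 1 CPM filter and -0.070 in 4 libraries alone (-0.12 to -0.094).

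Signs turned with ribosomal protein scaling in total RNA for Mcm10 (0.085), Gins3 (0.046), Tipin (0.085), Pole4 (0.018), Pole3 (0.17), Fbxo5 (0.10) and Skp2 (0.16), and in polysomes for Gmnn (0.58), Mcm9 (0.066), Gins3 (0.080), Pole4 (0.0082), Pola1 (0.11), Skp2 (0.018) and Tk1 (0.081). Pole in the slope difference turned to 0.016 with mitochondrial scaling, and Mcm5 and Mcm6 in polysomes to 0.30 and 0.27 without WT polysome replicate 1 (-0.24 and -0.25 without replicate 2). For moved values the cause was not tested. A replicate block left 0 members called on day 3, 26 listed genes lower in total RNA and 36 higher in the slope difference. Over genes, the difference of replicate 1 minus replicate 2 in KO was correlated with that in WT. The correlation was 0.32 in total RNA and 0.29 in polysomes of day 3. At 0, 4 and 8 h of actinomycin D it was 0.08, -0.04 and 0.05. The main fits did not pair libraries by number, so an effect shared by same-numbered libraries of day 3 was left in.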
